A study of Rattus norvegicus with 20 samples.

Results

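Fga, Fgb and Fgg encode the 3 chains of fibrinogen, and their RNA was followed across 20 arrays of primary rat islets. The genes were taken by name with every probe set that the array's probe table assigns to them alone, which gave 3 of 14217 genes and 6 of 31099 probe sets. Fga has 2 probe sets, Fgb has 3 and Fgg has 1. Fga, and with it the family, was chosen by its measured difference: its values were far higher on arrays labelled Nr4a1 or Nr4a3 than on GFP arrays. The comparisons of the chains with GFP are therefore described with no test.

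Fibrinogen is the soluble plasma protein that thrombin cuts to form fibrin, the mesh of a blood clot. A secreted molecule holds paired copies of the alpha chain (Fga), the beta chain (Fgb) and the gamma chain (Fgg), which are joined by disulphide bonds in the endoplasmic reticulum. Hepatocytes make nearly all circulating fibrinogen, and interleukin 6 raises the transcription of all chains during the acute phase response, whereas pancreatic islets are clusters of hormone cells not known as a main source.

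The islets came from male Wistar rats aged 8 weeks and were cultured in RPMI medium with 10% serum and 8 mM glucose. Islets were left untreated or received adenovirus for GFP (green fluorescent protein, the virus control), Nr4a1 or Nr4a3 for 18 h, and were collected at 48 h. Both receptors belong to the NR4A family of orphan nuclear receptors, which bind DNA as transcription factors. Each of the 4 groups has 5 arrays with 1 sample each. The labels call the replicates biological, but no source used here ties a replicate to an animal, so p-values measure the spread between these samples.

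The labels disagree on the viruses. The treatment protocol speaks of beta-galactosidase and Nkx6-1, but each title and treatment label names GFP, Nr4a1 or Nr4a3, and the grouping used here is that of the titles. The probe set for Nr4a1 lay between 5.82 and 6.11 (log2 RMA intensity) on the arrays labelled Nr4a1 and between 5.98 and 6.20 on GFP arrays, so it does not show the virus. The brightest probe set for Nr4a3 lay between 5.64 and 6.10 on the arrays labelled Nr4a3 and between 5.45 and 5.83 on GFP arrays, but was as high on the arrays labelled Nr4a1, at 5.87 to 6.18. The dimmest of its 3 probe sets gave 4.38 to 6.36 on the arrays labelled Nr4a3, 5.04 to 5.61 on those labelled Nr4a1 and 4.57 to 4.73 on GFP arrays. These values do not settle the labels. Group names below are therefore those of the labels. Nr4a3 replicate 2 stood apart: its mean correlation with the other arrays was 0.941 against 0.982 to 0.989 for the 19 others, and its actin 3'-5' difference, a measure of RNA degradation, was 4.62 against 1.5 to 2.21 on the log2 scale. Its values are given below with the rest, and the differences of the brighter Fga probe set that involve the Nr4a3 group are repeated without it.

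The chain genes lie side by side on rat chromosome 2 in the order Fgg, Fga, Fgb, with Fgb on the opposite strand to the other chains. The 250 bases before each start site are shown because the chains share this locus and varied together across arrays, as described below. They are from RefSeq, build GRCr8, 5′ to 3′ on the strand of the gene, at chr2:170652833-170653082 for Fgg (plus strand), chr2:170671919-170672168 for Fga (plus strand, first of 2 starts listed) and chr2:170700876-170701125 for Fgb (minus strand). Capitals mark CTGGGA, the core of the interleukin 6 response element known from acute phase genes, on either strand.
Fgg: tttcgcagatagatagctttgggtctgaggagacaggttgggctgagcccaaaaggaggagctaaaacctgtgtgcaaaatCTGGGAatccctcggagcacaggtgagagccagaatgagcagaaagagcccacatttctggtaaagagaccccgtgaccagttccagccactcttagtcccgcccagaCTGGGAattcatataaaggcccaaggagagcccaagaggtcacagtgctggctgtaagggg
Fga: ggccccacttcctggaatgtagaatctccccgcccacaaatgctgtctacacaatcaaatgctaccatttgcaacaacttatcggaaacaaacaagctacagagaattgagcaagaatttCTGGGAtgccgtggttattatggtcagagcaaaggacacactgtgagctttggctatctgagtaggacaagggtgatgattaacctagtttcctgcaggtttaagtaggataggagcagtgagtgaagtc
Fgb: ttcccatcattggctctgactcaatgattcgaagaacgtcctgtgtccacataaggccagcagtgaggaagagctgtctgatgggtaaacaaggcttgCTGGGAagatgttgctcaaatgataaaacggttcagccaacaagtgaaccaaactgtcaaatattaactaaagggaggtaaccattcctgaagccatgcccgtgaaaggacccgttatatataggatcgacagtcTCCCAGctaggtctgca

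CTGGGA occurred in each of these promoters, starting 169 and 61 bases before the start in Fgg, 130 bases before it in Fga, and 152 and, on the opposite strand, 17 bases before it in Fgb. It also occurs in 25.8% of 27457 rat promoters of the same length, searched on both strands. AAAGGTCA, the element that NR4A receptors bind as monomers, had no exact match in the windows of all 3 chains, and 1.11% of promoters hold it. TTNNGNAA, the motif of C/EBP factors, had 1 match in Fga, 2 in Fgb and none in Fgg, against 36.8% of promoters with a match. GTTAAT, an arm of the motif of the hepatocyte factor HNF1, had 1 match in Fga and 1 in Fgb, against 6.46% of promoters. TATAAA, the TATA box, matched only in Fgg, 50 bases before the start, against 13.1% of promoters. No match of another motif overlapped a CTGGGA match in these windows, and a match is a run of letters rather than a bound site.

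The alpha chain gene stood below the middle of the scale in control islets. Values are log2 of the RMA intensity, a summary of the brightness of a probe set after background correction and quantile normalization across arrays. On the untreated arrays, replicates 1 to 5, the brighter Fga probe set gave 5.18, 6.22, 5.13, 5.14 and 5.15, with a mean of 5.36 ± 0.48 (SD, n = 5). The GFP arrays gave 5.30, 6.07, 5.72, 5.41 and 5.51, with a mean of 5.60 ± 0.30 (SD, n = 5). Replicate 2 was the highest in both control groups, and the control groups overlapped. Fga lay at percentiles 23.9 to 43.2 of all probe sets on the untreated arrays and 28.4 to 41.3 on the GFP arrays. No detection call was used, so whether Fga RNA was above background in control islets was not established.

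On the arrays labelled Nr4a1 the same probe set gave 10.96, 11.55, 7.98, 11.44 and 11.68, with a mean of 10.72 ± 1.56 (SD, n = 5). Replicate 3 was well below the other 4, and all 5 arrays were above every control array. The arrays labelled Nr4a3 gave 10.23, 9.02, 8.81, 7.48 and 6.47, with a mean of 8.40 ± 1.46 (SD, n = 5). These 5 arrays also lay above every control array, but their lowest, at 6.47, was only just above the highest untreated array at 6.22. Percentiles on the array ran from 68.7 to 97.9 in the Nr4a1 group and from 46.8 to 92.6 in the Nr4a3 group.

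Against GFP, Fga was higher by 5.12 ± 0.63 (SE) on the log2 scale with Nr4a1, a ratio of 34.8 in measured intensity, and by 2.80 ± 0.63 with Nr4a3, a ratio of 6.96. Since Fga was not shown to be above background on GFP arrays, these are ratios of intensity and not of RNA amount. These contrasts chose the gene and both use the same GFP arrays. By measured difference Fga ranked first of 14217 genes for Nr4a1 and at place 6 for Nr4a3. Of all genes, 10.6% also had every Nr4a1 array above every GFP array, and 3.12% had this for Nr4a3. Without Nr4a3 replicate 2 the Nr4a3 difference was 2.64. In bulk islet RNA, more cells that hold a transcript and more transcript per cell cannot be told apart.

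The dimmer Fga probe set was also highest on the arrays labelled Nr4a1 and next on those labelled Nr4a3, while its control means were 4.57 (untreated) and 4.56 (GFP). Its untreated values were 4.45, 4.56, 4.44, 4.90 and 4.52, and its GFP values 4.43, 4.80, 4.51, 4.43 and 4.65. The Nr4a1 arrays gave 8.24, 8.59, 5.83, 8.48 and 9.05, and the Nr4a3 arrays gave 7.52, 7.79, 6.36, 5.21 and 5.25. Replicate 3 was again the lowest of the Nr4a1 group, and both receptor groups lay above all control arrays. The difference from GFP was 3.47 ± 0.51 (SE) for Nr4a1 and 1.86 ± 0.51 for Nr4a3, again over a control level not shown to be above background.

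The beta chain gene was bright in every group, including untreated islets. The brightest Fgb probe set gave 10.71, 11.94, 10.30, 11.20 and 11.34 on untreated arrays, with a mean of 11.10 ± 0.63 (SD, n = 5). GFP arrays gave 10.90, 12.15, 11.73, 10.84 and 11.37, with a mean of 11.40 ± 0.56 (SD, n = 5). Fgb lay between percentiles 93.4 and 99.5 of all probe sets on all 20 arrays, so control islets held it among their brighter probe sets, with replicate 2 again the highest control of its group. The Nr4a1 arrays gave 12.73, 12.92, 11.49, 13.14 and 13.06, with a mean of 12.67 ± 0.68 (SD, n = 5), and 4 of 5 were above all GFP arrays. The Nr4a3 arrays gave 12.73, 12.31, 12.54, 11.55 and 10.94, with a mean of 12.01 ± 0.75 (SD, n = 5), and 3 of 5 were above all GFP arrays. Both receptor groups overlapped the controls, through replicate 3 of the Nr4a1 group and replicates 4 and 5 of the Nr4a3 group.

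The difference of Fgb from GFP was 1.27 ± 0.38 (SE) with Nr4a1, a fold of 2.41, and 0.62 ± 0.38 with Nr4a3, a fold of 1.53. The other Fgb probe sets were dim and nearly flat: one lay between 5.20 and 5.90 on all 20 arrays, with group means of 5.36, 5.32, 5.42 and 5.59 in the order untreated, GFP, Nr4a1, Nr4a3. The other lay between 3.65 and 4.85, with group means of 3.93, 3.94, 3.83 and 4.04, and its highest value was that of Nr4a3 replicate 2. The 3 Fgb probe sets thus disagreed, and the mean over them put the Nr4a1 difference at 0.42.

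The gamma chain gene had the pattern of the bright Fgb probe set. Fgg gave 10.97, 11.92, 10.63, 11.31 and 11.35 on untreated arrays, with a mean of 11.24 ± 0.48 (SD, n = 5). GFP arrays gave 10.90, 11.92, 11.69, 11.03 and 11.26, with a mean of 11.36 ± 0.43 (SD, n = 5). Replicate 2 was the highest of both control groups, as for Fga and Fgb. The Nr4a1 arrays gave 12.57, 12.67, 11.55, 12.69 and 12.51, with a mean of 12.40 ± 0.48 (SD, n = 5), and 4 of 5 were above all GFP arrays. The Nr4a3 arrays gave 12.21, 11.64, 12.01, 11.44 and 10.85, with a mean of 11.63 ± 0.53 (SD, n = 5), of which 2 were above and 1 was below all GFP arrays. The difference from GFP was 1.04 ± 0.28 (SE) with Nr4a1, a fold of 2.05, and 0.27 ± 0.28 with Nr4a3, a fold of 1.21.

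**Figure D1:**
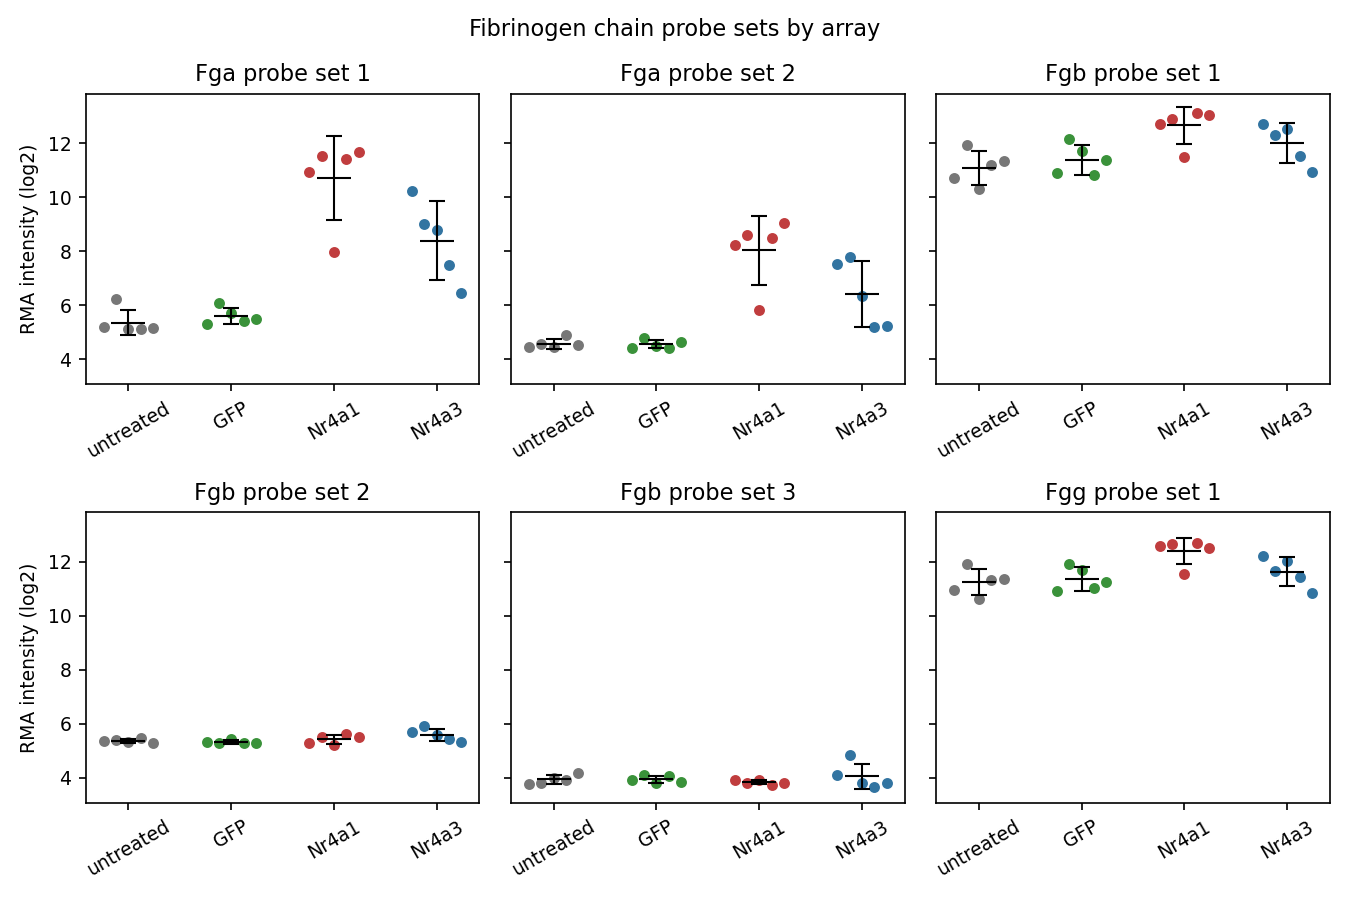
Log2 RMA intensity (vertical axis) of each of the 6 probe sets of Fga, Fgb and Fgg on the 20 arrays, 1 panel per probe set, by group, with a point for each array (replicates 1 to 5 from left to right) and a line with bars for the group mean ± SD. The brighter Fga probe set is at 5.13 to 6.22 on control arrays and at 6.47 to 11.68 on arrays of both NR4A groups, the brightest Fgb probe set and Fgg overlap between groups, and the other Fgb probe sets are dim throughout.

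For the brightest probe set of each gene, the group means shared the order Nr4a1, Nr4a3, GFP, untreated from highest to lowest. The dim probe sets did not keep it: both dim Fgb probe sets had their highest mean with Nr4a3. The lower neighbours in the order of the brightest probe sets, GFP and untreated, did not differ beyond their spread for any chain, and for Fgb and Fgg neither did Nr4a3 and GFP, whose ranges overlapped.

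Whether the virus itself moved the chains is addressed by GFP against untreated, a contrast that did not itself choose the genes. Its GFP arrays were the baseline of the contrasts that did. A low GFP level of Fga was thus favoured, and the comparison is not independent of the choice. In a limma fit over all 20 arrays, none of the 3 chains passed an adjusted p of 0.05, and 0.0% of all genes did. Of 14217 genes, 412 (2.9%) had an unadjusted p under 0.05, and no alternative fit made a call. Fga differed by 0.24 on the log2 scale (95% interval -1.08 to 1.56), Fgb by 0.30 (-0.49 to 1.09) and Fgg by 0.12 (-0.46 to 0.71), each with an adjusted p of 1.0 in limma. These intervals are wide for Fga, so that equal levels were not shown. They draw on the spread of all 4 groups. The SD of Fga was 1.56 and 1.46 in the Nr4a1 and Nr4a3 groups, against 0.48 in untreated and 0.30 in GFP islets. In a fit to only the 10 arrays compared, the Fga difference of 0.24 had an SE of 0.21, against 0.63 here. It did not pass there either (limma adjusted p = 0.94). Without GFP replicate 2 or untreated replicate 3 the sign for Fgg turned, to -0.02 and -0.03.

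Nr4a1 against Nr4a3 compares the receptors directly. This contrast did not itself choose Fga. Its arrays are those on which Fga was seen to be high, so it is not independent of the choice. Fga was 2.32 ± 0.63 (SE) higher on the log2 scale on the arrays labelled Nr4a1, a fold of 4.99 (95% interval of the difference 1.0 to 3.64), with 4 of 5 Nr4a1 arrays above all Nr4a3 arrays. That was the largest rise of all genes in this contrast, but limma's adjusted p was 0.12, with an unadjusted p of 0.00153, so it did not pass. Of all genes 0.633% passed. Leaving out Nr4a1 replicate 3 gave 3.01 with limma's adjusted p at 0.00449, and leaving out Nr4a3 replicate 1 gave 2.78 with 0.0346. No other single array left out made Fga pass. Without Nr4a3 replicate 2, the array that stood apart, the difference was 2.47 (limma adjusted p = 0.0951). Without Nr4a1 replicate 1 it was 2.26 (limma adjusted p = 0.321). In a fit to only the 10 arrays compared, the Fga difference of 2.32 had an SE of 0.81 (limma adjusted p = 0.626). That fit leaves out the control arrays, on which Fga varied less. In the fit to all 20 arrays Fgg was 0.77 ± 0.28 higher (adjusted p = 0.304 in limma, interval 0.18 to 1.35). Fgb was 0.65 ± 0.38 higher (adjusted p = 0.502 in limma, interval -0.13 to 1.44).

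Within an array, the gap between chains was compared across groups, since a level of 1 probe set cannot be set against that of another. The log2 value of Fga minus that of Fgb was -5.74 ± 0.41 in untreated islets, -5.79 ± 0.27 with GFP, -1.95 ± 0.89 with Nr4a1 and -3.61 ± 0.76 with Nr4a3 (SD, n = 5 each). Each Nr4a1 and Nr4a3 array was above every GFP array, with mean differences of 3.85 and 2.18. The choice of Fga used these contrasts, so this is a description. Nr4a1 replicate 3, which had the lowest Fga, gave -3.51, and the other Nr4a1 arrays gave -1.77 to -1.36. Fga minus Fgg ran the same way, with -5.87 ± 0.30, -5.76 ± 0.15, -1.68 ± 1.09 and -3.23 ± 0.97 in the same order of groups. Fgb minus Fgg moved far less, from -0.14 ± 0.16 and 0.04 ± 0.15 in the controls to 0.27 ± 0.24 with Nr4a1 and 0.38 ± 0.26 with Nr4a3.

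The gaps were tested in the contrasts that had not chosen Fga, with 6 exact permutation tests, two-sided, of 5 against 5 arrays, which cannot go below p = 0.00794. Fga minus Fgb was 1.67 higher with Nr4a1 than with Nr4a3 (exact permutation p = 0.0238, adjusted 0.143), with 4 of 5 Nr4a1 arrays above all Nr4a3 arrays. Fga minus Fgg was 1.55 higher (exact permutation p = 0.0556, adjusted 0.167), and Fgb minus Fgg differed by -0.11 (exact permutation p = 0.484, adjusted 0.581). GFP against untreated gave differences of -0.06, 0.12 and 0.18 for the same pairs (exact permutation p = 0.786, 0.452 and 0.103; adjusted 0.786, 0.581 and 0.206). None of the 6 passed after adjustment.

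**Figure D2:**
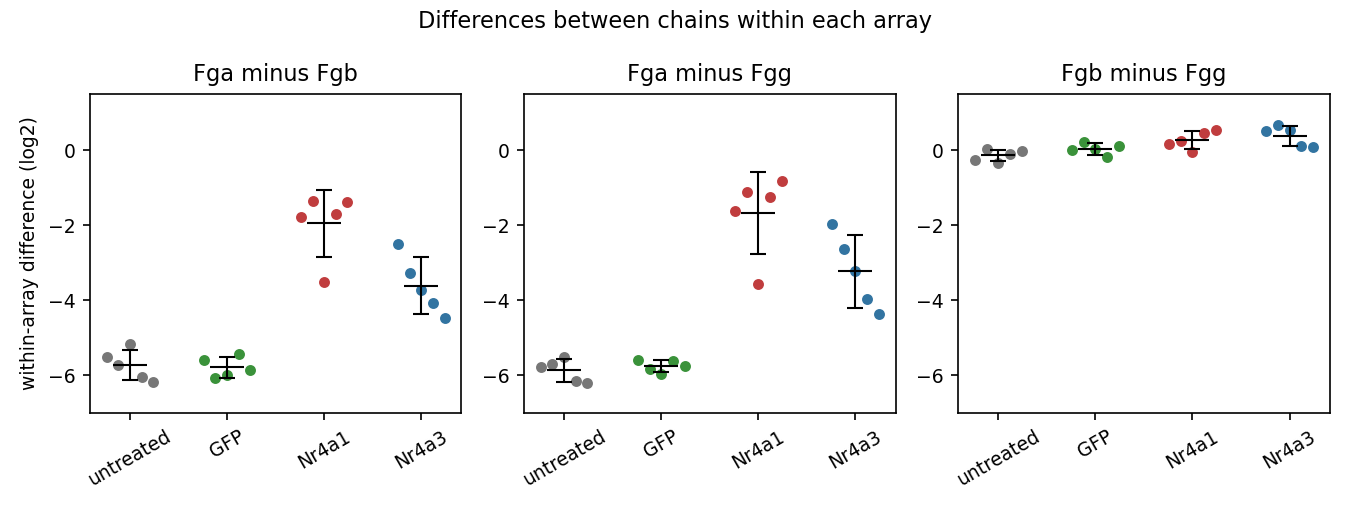
Difference in log2 RMA intensity between a pair of chains on the same array (vertical axis), by group, with a point for each array (replicates 1 to 5 from left to right) and a line with bars for the group mean ± SD. Fga minus Fgb and Fga minus Fgg lie between -6.20 and -5.18 on control arrays and between -4.48 and -0.83 on NR4A arrays, while Fgb minus Fgg lies between -0.33 and 0.66 on all 20.

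All 3 chains varied more between control arrays than most genes. The SD within groups over the 10 control arrays was 0.40 on the log2 scale for Fga, 0.592 for Fgb and 0.457 for Fgg, against a median of 0.139 over all genes. These SDs lay at percentiles 96.6, 98.7 and 97.6 of all genes. Against genes within 0.5 log2 units of the same level they lay at 94.8 (of 2288 genes), 98.9 (of 444) and 98.1 (of 480). Fga ranged over 1.09 on the log2 scale among controls, a fold of 2.13, Fgb over 1.84, a fold of 3.59, and Fgg over 1.29, a fold of 2.44. The Fga spread rested on untreated replicate 2, without which it fell to 0.23. In the Nr4a1 group the SDs of Fga, Fgb and Fgg were 1.56, 0.68 and 0.48, and they rested on replicate 3: without it they were 0.32, 0.18 and 0.08, at percentiles 94.6, 77.8 and 26.4 of all genes. In the Nr4a3 group they were 1.46, 0.75 and 0.53, at percentiles 99.9, 96.2 and 88.6, and without replicate 5 they were 1.13, 0.52 and 0.35.

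The chains varied together. Over the 10 control arrays Fgb and Fgg had Pearson r = 0.98 and Spearman rho = 0.93 (permutation p = 2e-05 and 0.00027, adjusted 0.00012 and 0.00162 over 6 relations), and r was 0.97 without untreated 3 and GFP 2. Fga with Fgb had r = 0.84 and rho = 0.79 (permutation p = 0.0019 and 0.00843, adjusted 0.0038 and 0.0253). Fga with Fgg had r = 0.85 and rho = 0.68 (permutation p = 0.00185 and 0.0345, adjusted 0.0038 and 0.0691). Without both arrays numbered 2, the farthest from the median of Fga, r fell to 0.64 with Fgb (exact permutation p = 0.0899, n = 8) and to 0.60 with Fgg (exact permutation p = 0.126, n = 8). With the means of the control groups taken off and without the same arrays, r was 0.59 with Fgb (exact permutation p = 0.102, n = 8) and 0.68 with Fgg (exact permutation p = 0.0479, n = 8). The relation of Fga with the other chains in controls was thus weaker without those arrays.

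Across all 20 arrays, after the group mean was taken off each value, Fgb and Fgg had r = 0.98 and rho = 0.96, Fga and Fgb had r = 0.86 and rho = 0.86, and Fga and Fgg had r = 0.83 and rho = 0.83. Each had a permutation p of 1e-05, the smallest that 100000 resamples can give, and an adjusted p of 2e-05. The deviations were permuted freely across groups of unequal spread, and taking off group means leaves fewer free values than arrays. These p-values, and those for the control deviations above, are therefore approximate and may be too small. Without Nr4a1 replicate 3 and Nr4a3 replicate 5, the farthest from the median of the deviations, r was 0.96, 0.76 and 0.71 in the same order. Arrays with more of 1 chain than their group thus had more of the others. Similar Fgb values went with different Fga values across groups: for example, Nr4a1 replicate 3 had Fgb at 11.49 and Fga at 7.98, while GFP replicate 3 had Fgb at 11.73 and Fga at 5.72.

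**Figure D3:**
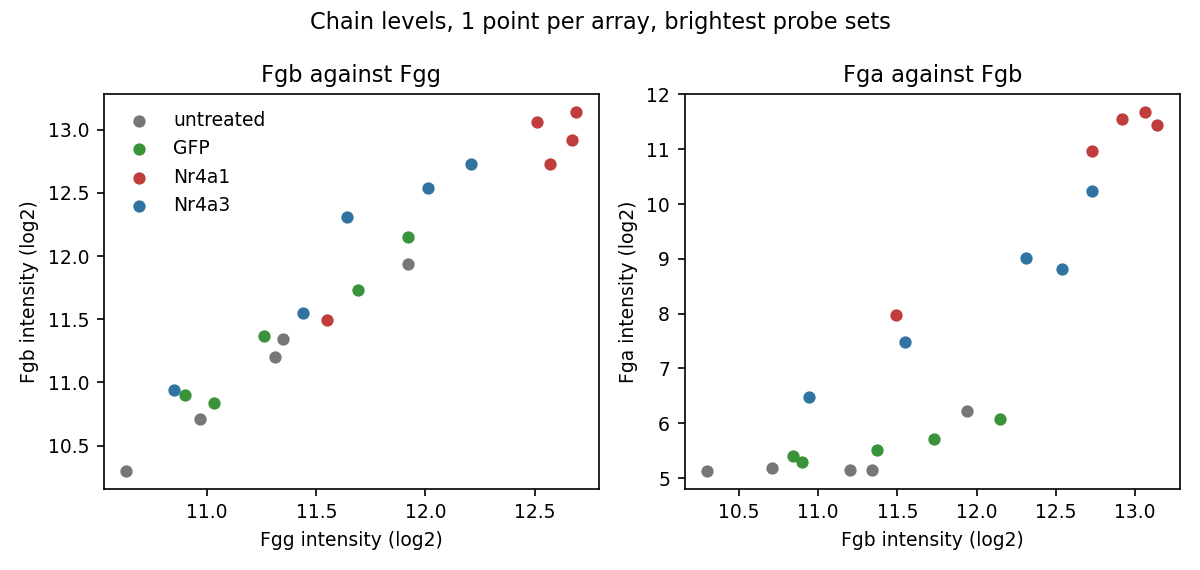
Log2 RMA intensity of the brightest probe set of Fgb against Fgg (left) and of Fga against Fgb (right), with a point for each of the 20 arrays, coloured by group. Fgb follows Fgg along 1 band in all groups, whereas NR4A arrays lie above control arrays of similar Fgb value in Fga.

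Among all genes, those with the most similar values to each chain were found by Pearson r over the 20 arrays, which share normalization and groups. Fga was most like Glyctk (glycerate kinase; r = 0.964), Trim16 (r = 0.955), Ddit4l (an inhibitor of mTOR signalling; r = 0.949), Gyg1 (glycogenin, the primer of glycogen synthesis; r = 0.945) and Plpp2 (a lipid phosphate phosphatase; r = 0.943). Fgb came only at place 64 with r = 0.893 and Fgg at place 111 with r = 0.871. The nearest gene to Fgb was Fgg and the nearest to Fgg was Fgb, with r = 0.972. Next for Fgb were Shb (an adaptor protein; r = 0.954), Pde9a (a cyclic GMP phosphodiesterase; r = 0.949), Tmem252 (r = 0.938) and Plekhm1 (r = 0.915). Next for Fgg were Tmem252 (r = 0.956), Shb (r = 0.937), Plekhm1 (r = 0.928) and Gpx2 (a glutathione peroxidase; r = 0.917).

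The 5 genes nearest to Fga all rose on the arrays labelled Nr4a1, where 876 genes (6.16%) rose and 1239 (8.71%) were called in either direction against GFP in limma; likeness to Fga favours such genes. Gyg1 rose by 2.98 ± 0.17 (SE) on the log2 scale (limma adjusted p = 1.22e-09), and Ddit4l rose by 4.09 ± 0.42 (limma adjusted p = 2.86e-06), from 6.05 ± 0.34 to 10.14 ± 0.95 (SD, n = 5). On the arrays labelled Nr4a3 Gyg1 rose by 1.15 ± 0.17 (limma adjusted p = 0.00101) and Ddit4l by 3.01 ± 0.42 (limma adjusted p = 0.000458). Gyg1 also separated the receptors, at 1.83 ± 0.17 higher with Nr4a1 than with Nr4a3 (limma adjusted p = 2.15e-05). Of the genes nearest to Fgb and Fgg, Shb did not pass in the comparison of Nr4a1 with GFP (0.44 ± 0.14, limma adjusted p = 0.0528) and Tmem252 rose by 1.30 ± 0.26 (limma adjusted p = 0.00258).

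Once group means were taken off, the genes nearest to Fga were Fgb (r = 0.858), Steap4 (a metalloreductase; r = 0.851), Pfkp (a platelet-type phosphofructokinase; r = 0.850), Shb (r = 0.840) and Aadat (an aminotransferase; r = 0.839), with Fgg at place 9. Those nearest to Fgb were Fgg (r = 0.978), Shb (r = 0.910), Plekhm1 (r = 0.910), Tmem252 (r = 0.904) and Pde9a (r = 0.899). For Fgg they were Fgb, Tmem252 (r = 0.922), Plekhm1 (r = 0.904), Shb (r = 0.889) and Rell1 (r = 0.866). Within groups, then, Fgb was the gene nearest to Fga, only just ahead of Steap4 and Pfkp, and across groups it was not. Seen from the other chains Fga came no closer. It was at place 13 for both Fgb and Fgg over the 20 arrays. With group means taken off it was at place 14 for Fgb and 15 for Fgg.

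The genes beside the cluster did not share the size of the Fga difference. Lrat, the retinol acyltransferase gene next to Fgg, rose by 0.46 ± 0.13 (SE) on the log2 scale with Nr4a1 against GFP (limma adjusted p = 0.0268), a call lost when GFP replicate 1 or 2, or Nr4a1 replicate 1 or 3, was left out (up to 0.0946). Plrg1, a splicing factor gene on the other side of Fgb, differed by 0.15 ± 0.07 (limma adjusted p = 0.24). Npy2r, a receptor for neuropeptide Y, differed by -0.13 (limma adjusted p = 0.53) and Sfrp2, an inhibitor of Wnt signalling, by 0.00 (limma adjusted p = 0.993). With Nr4a3 against GFP none of these 4 genes passed.

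Genes that act with fibrinogen mostly did not pass any test. The 8 related lists hold 122 distinct measured genes, of which 2 rose and 5 fell with Nr4a1 against GFP, with a median difference of 0.01 on the log2 scale against 0.00 for all genes. By comparison 6.16% of all genes rose and 2.55% fell. With Nr4a3 against GFP 1 rose and 1 fell, against 1.75% and 0.176% of all genes. Between the receptors 1 was higher with Nr4a1, against 0.598% of all genes, and with GFP against untreated none passed.

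Of the coagulation cascade, the enzymes and cofactors that lead to thrombin, 0 of 20 measured genes passed with Nr4a1 against GFP. F2, the prothrombin gene, differed by 0.38 (limma adjusted p = 0.262) and F3, the gene of tissue factor, by -0.50 (limma adjusted p = 0.256). Of fibrinolysis, which breaks fibrin down, 1 of 12 rose, S100a10, a subunit of a plasminogen receptor, by 0.85 ± 0.21 (SE; limma adjusted p = 0.0135). Of the fibrinogen receptors, integrins and partners, 0 of 10 passed.

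Of the relatives that carry a fibrinogen domain, 1 of 15 rose. Fgl2, which encodes a fibrinogen-like protein of immune and endothelial cells, was at 9.41 to 9.88 on GFP arrays, at 10.36 to 11.25 on Nr4a1 arrays and at 9.72 to 10.21 on Nr4a3 arrays. The Nr4a1 arrays lay above all others. The rise was 1.31 ± 0.17 (SE), a fold of 2.48, against GFP (limma adjusted p = 4.76e-05) and 0.93 ± 0.17 against Nr4a3 (limma adjusted p = 0.0104), the latter lost in a fit to only the 10 arrays compared (0.0833).

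Of the other acute phase proteins, 0 of 17 rose and 1 fell with Nr4a1 against GFP. Itih3, a hyaluronan-binding plasma protein, fell by 1.05 ± 0.27 (SE) on the log2 scale (limma adjusted p = 0.019), a call lost when GFP replicate 1 or 4, or Nr4a1 replicate 2 or 4, was left out (up to 0.0596). Serpina3n, a protease inhibitor, differed by 1.02 ± 0.35 (limma adjusted p = 0.0779), and Hp, the haptoglobin gene, by 0.39 (limma adjusted p = 0.195). Steap4, which was near Fga within groups, is on this list and differed by 1.07 ± 0.64 (limma adjusted p = 0.397). Differences in the list ran from -1.05 to 1.41, with a median of 0.05. The highest, that of Hpx, was above those of Fgb (1.27) and Fgg (1.04) but did not pass. A2m, the main acute phase protein of rats, differed by 0.14 ± 0.20 with Nr4a1 but rose by 0.91 ± 0.20 with Nr4a3 (limma adjusted p = 0.0207, lost in a fit to 10 arrays and when GFP replicate 1, 2 or 5, or Nr4a3 replicate 1, was left out, up to 0.0632). Between the receptors A2m differed by -0.77 (limma adjusted p = 0.103). Within groups, the mean of the list was highest at untreated replicate 2 (8.83) and lowest at Nr4a1 replicate 3 (7.77). In the Nr4a3 group it was highest at replicate 1 (8.97) and lowest at replicate 5 (8.17). The brightest probe set of each chain had the same extremes. Its lowest untreated array was replicate 3, whereas that of the list was replicate 1 (7.60). The relation of the list with the chains was not tested.

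Of 19 regulators of the fibrinogen genes, 3 fell and 0 rose with Nr4a1 against GFP. Il6r, the receptor for interleukin 6, fell by 0.95 ± 0.15 (SE; limma adjusted p = 0.000449), from 9.04 ± 0.16 to 8.09 ± 0.34 (SD, n = 5). It also fell with Nr4a3, by 0.62 ± 0.15 (limma adjusted p = 0.0369), though that call was lost in 10 of 29 alternatives, among them leaving out any of GFP replicates 1, 2, 3 and 5 or Nr4a3 replicates 1, 3 and 5 (up to 0.11). Hnf4a, a hepatocyte and islet nuclear receptor, fell by 0.51 ± 0.09 (limma adjusted p = 0.000956), and the mean of its probe sets gave -0.18 (limma adjusted p = 0.0637). Nr3c1, the glucocorticoid receptor, fell by 0.28 ± 0.08 (limma adjusted p = 0.0389), and 9 of 29 alternatives, among them leaving out GFP replicate 1, 2 or 3 or Nr4a1 replicate 1, 3 or 5, ended that call (up to 0.134). Stat3, the factor activated by interleukin 6, differed by 0.12 and Il6st, its signalling receptor subunit, by -0.13.

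Of 15 genes for the assembly and export of disulphide-bonded proteins in the endoplasmic reticulum, 1 fell. Ero1b, an oxidase of the beta cell that makes disulphide bonds, fell by 0.63 ± 0.12 (SE; limma adjusted p = 0.00231). Lman1 and Mcfd2, the cargo receptor pair known for exporting coagulation factors, each differed by 0.14 and did not pass.

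**Figure D4:**
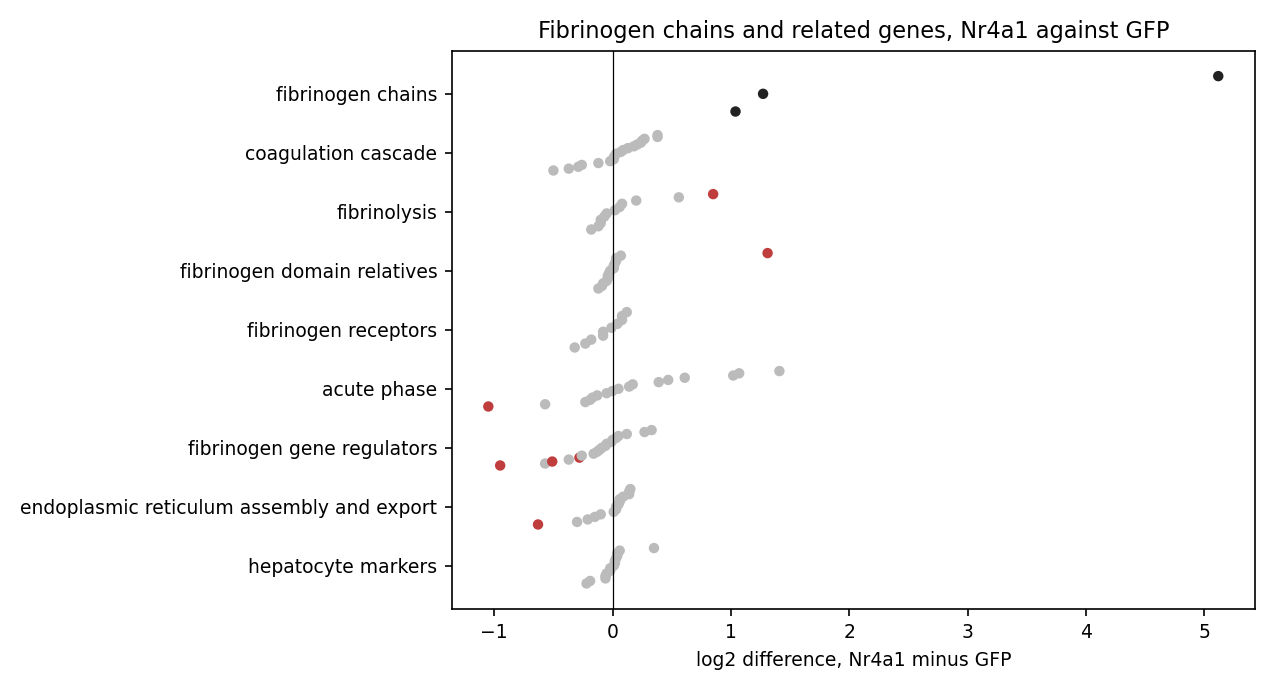
Difference of Nr4a1 minus GFP in log2 RMA intensity (horizontal axis) for the 3 chains (black, top row, not tested here) and for each measured gene of the 8 related lists (rows); red points passed limma at an adjusted p of 0.05 and grey points did not, and the height within a row only spreads the points. The related genes lie between -1.05 and 1.41, and Fga lies at 5.12.

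None of the hepatocyte markers passed beside the chains. With Nr4a1 against GFP 0 of 15 passed, and the mean of the list was 5.99 to 6.09 on GFP arrays and 6.01 to 6.09 on Nr4a1 arrays. Alb, the albumin gene, averaged 5.16, 5.18, 5.21 and 5.15 in untreated, GFP, Nr4a1 and Nr4a3 islets, and Apoa1, a main lipoprotein gene of the liver, 4.68, 4.67, 4.73 and 4.69. Other markers of the list were brighter in untreated islets, such as Serpina1, a protease inhibitor, at 8.65 and Ttr, transthyretin, at 8.15, with 8.46 and 7.85 on Nr4a1 arrays. Of 6 platelet markers, from cells that store fibrinogen, 0 passed.

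Markers of other pancreatic cells did move with the groups. Of 24 acinar markers, 21 rose with Nr4a1 against GFP, with a median difference of 2.47, and their mean was 6.91 to 9.19 on GFP arrays and 9.64 to 10.92 on Nr4a1 arrays, with no overlap. With Nr4a3 1 of 24 rose, and the mean was 8.60 to 9.40. Pnlip, pancreatic lipase, rose by 3.07 ± 0.44 (SE; limma adjusted p = 0.000136) with Nr4a1. In the 10 control arrays the acinar mean ran from 6.91 to 10.19, and its correlation with the chains there was -0.21 for Fga, -0.17 for Fgb and -0.16 for Fgg (Pearson; permutation p = 0.552, 0.634 and 0.652; rho = -0.18, -0.25 and -0.10). Over 20 arrays with group means taken off it was 0.15, 0.06 and 0.03. Nr4a1 replicate 3, with the lowest Fga of its group, had an acinar mean of 9.86, inside the range of the others. The part of acinar RNA in the group difference itself was not tested.

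Of 12 duct markers 2 rose with Nr4a1, Car2, a carbonic anhydrase, by 2.21 ± 0.19 (SE; limma adjusted p = 3.83e-07) and Tff2, a trefoil peptide, by 1.58 ± 0.34 (limma adjusted p = 0.00509). The mean of the duct list was 8.40 to 8.79 on GFP arrays and 8.86 to 9.13 on Nr4a1 arrays. Untreated arrays, at 8.42 to 8.90, overlapped the Nr4a1 arrays. The median difference of the duct list between Nr4a1 and GFP was only 0.06. With Nr4a3 1 of the 12 rose, Car2 by 1.59 (limma adjusted p = 0.000168). Of 12 endothelial markers 7 fell with Nr4a1 and 2 with Nr4a3, and of 11 beta cell markers 5 fell with Nr4a1 and 1 with Nr4a3. Of all genes 6.16% rose and 2.55% fell with Nr4a1, and 1.75% rose and 0.176% fell with Nr4a3. None of 13 macrophage and leukocyte, 12 stellate and fibroblast or 6 other endocrine markers passed in either comparison with GFP. The GAPDH 3'-5' difference was 0.27 to 0.36 on Nr4a1 arrays and 0.50 to 0.74 on GFP arrays. The part of these differences in the chain results was not tested.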

How the data were processed

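RNA of 20 islet samples was measured on an Affymetrix rat array. The deposited intensity of each probe set is on a linear scale and was made by the authors with RMA, per the submitters' processing notes, which name no version. They ran from 7.69 to 34261, with array medians of 98.9 to 103. Scan dates and detection calls were not used, and precision is limited by how many arrays there are.

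The values were log2-transformed with no further scaling. Of 31099 probe sets, 20832 have 1 gene symbol, 436 several and 9831 none. Each of 14217 genes was represented by its brightest probe set over all arrays. All arrays entered 1 linear model with a mean for each group (limma 3.58.1, R 4.3.3), and p-values were adjusted over all genes by the Benjamini-Hochberg method. The fit was tested on simulated data. Permutation tests were coded directly in Python 3.11.15, with ranks from scipy 1.17.1. The members, lists and tests were chosen with earlier results of these data known. Named genes are the chains, up to 4 genes of each related list with the smallest p in Nr4a1 against GFP and up to 2 in other comparisons, up to 3 per marker list, the 5 genes most like each chain, and the neighbouring genes. Hpx was added for its high difference in the acute phase list. Alternatives were single arrays left out, a fit to the 10 arrays at hand, a block for the replicate number, array weights, other variance, scaling, filter and probe set choices.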

Additional observations from a re-analysis of the deposited data

Results flagged for a closer look

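Each group of 5 arrays was checked for a value far from the others (Dixon's test at the 95% level), and 6 of 24 combinations of probe set and group had one, where chance gives about 1 in 20. Nr4a1 replicate 3 was low for 4 probe sets, at 7.98 and 5.83 for the probe sets of Fga, 11.49 for the brightest of Fgb and 11.55 for Fgg. The brighter Fga probe set was high at 6.22 on untreated replicate 2, and the dimmer was high at 4.90 on untreated replicate 4. Chains of the same array are not independent, so the 4 values of Nr4a1 replicate 3 are 1 event.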

How the results depend on the processing

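Of 563 alternatives to 25 results, 529 were counted as unchanged and 7 reversed. For tested differences, unchanged means the same direction and call. For untested differences it means the same direction and a shift below the pooled SD of the groups compared. Gene counts and control SDs have no call and had to stay within a set ratio. Many alternatives left out an array outside the contrast, where the estimate of a difference cannot change. Fga in Nr4a1 against Nr4a3 passed with array weights (2.63, limma adjusted p = 0.0303) and ranged from 1.84 to 3.01 with single arrays left out (limma adjusted p from 0.00449 to 0.626 over all its alternatives). Averaging the probe sets of each gene gave 0.42 for Fgb in Nr4a1 against GFP, and for GFP against untreated reversed Fga minus Fgb (0.03), Fga minus Fgg (-0.01) and Fgb minus Fgg (-0.04). It put Fgb minus Fgg at -0.67 in Nr4a1 against Nr4a3 (exact permutation p = 0.0238). With single arrays left out, GFP against untreated ran from -0.03 to 0.29 for Fgg (-0.03 without untreated 3, -0.02 without GFP 2), from -0.17 to 0.08 for Fga minus Fgb (0.08 without untreated 3, 0.01 without GFP 2), and from 0.13 to 0.23 for Fgb minus Fgg (0.23 without GFP 4). Fga minus Fgg in Nr4a1 against Nr4a3 ran from 1.27 to 2.03 (2.03 without Nr4a1 3, 1.87 without Nr4a3 1), and the control SD of Fga from 0.23 (without untreated 2) to 0.426. Genes called in Nr4a1 against Nr4a3 numbered 90, but 1 in a fit to the 10 arrays, 274 with array weights and 43 to 133 with single arrays left out. Against GFP the counts were 2854, 3578 and 742 to 2715 for Nr4a1 (1239 as reported) and 122, 1027 and 127 to 527 for Nr4a3 (274 as reported), with 2715 and 527 both without Nr4a3 replicate 2. The causes were not tested. With the replicate number as a block, Fga differed by 2.32 (limma adjusted p = 0.157) between the receptors and 70, 1088 and 204 genes were called in these contrasts. The deviations of same-numbered arrays had a mean correlation of 0.005 over 30 pairs (-0.3 to 0.5), against 0.002 over 120 pairs of different number. These means showed no pairing by number, but they cannot exclude that some same-numbered arrays share a source. Replicate 2 was the highest of both control groups for the brightest probe set of each chain.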
